A study of Homo sapiens with 12 samples.

Results

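The genes of serine synthesis and of the ATF4 stress response were followed in MDA-MB-231, an established line of triple-negative breast cancer cells, on 12 single-colour exon arrays. The set held 10 genes: PHGDH, PSAT1, PSPH, SHMT2 and MTHFD2 for serine and mitochondrial folate metabolism, and ATF4, DDIT3, TRIB3, CHAC1 and ASNS for the stress response. Members were found through the transcript that each array probe is assigned to, and all 10 were measured, by 86 probes, among 20708 genes with a probe. The filter on dim probes kept 71 of the 86 probes and at least 1 probe for each of the 10 genes. The set was chosen on the PSAT1 signal, which was higher in sirnaAGO2 than in cntrl, so the difference between sirnaAGO2 and cntrl is given below as a description, with no test.

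The study asked how far the actions of miR-145-5p, a tumour-suppressor microRNA, depend on Ago2, the Argonaute protein that can cut its target RNA. The 4 groups of 3 arrays were cntrl, with control oligonucleotides in place of both agents; mimic145, with a miR-145-5p mimic; sirnaAGO2, with a Dicer-substrate siRNA against AGO2; and sirnaAGO2+mimic145, with both. All groups were transfected cultures of one line. The mimic was used at 5 nM and the siRNA at 500 pM, with 72 h of silencing. Below, control cells are cells without the AGO2 siRNA and silenced cells are cells with it.

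In the serine pathway, PHGDH, PSAT1 and PSPH turn a glycolytic intermediate into serine in consecutive steps. SHMT2 then passes a carbon unit from serine to folate in mitochondria, and MTHFD2 oxidises it. ATF4 is a transcription factor whose protein is made when the initiation factor eIF2 is phosphorylated by one of 4 kinases that sense heme loss, double-stranded RNA, misfolded protein in the endoplasmic reticulum or lack of amino acids. ATF4 is known to drive PHGDH, PSAT1, SHMT2, MTHFD2 and ASNS together with DDIT3 (CHOP, a transcription factor of sustained stress), TRIB3 (a pseudokinase that restrains the response) and CHAC1 (an enzyme that degrades glutathione). In a culture measured as a whole, a change in every cell and a change in a share of the cells cannot be told apart, and ATF4 protein was not measured here.

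The mature sequence of the microRNA that the mimic stands for is shown because the mimic carried most of the changes described below. Its seed, bases 2 to 8, is in capitals, and RefSeq places it on the plus strand at chr5:149430661-149430683 of GRCh38.p14.
hsa-miR-145-5p: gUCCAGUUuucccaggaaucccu

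ATF4 pairs with C/EBP proteins on the composite site TGATGNAA, so promoter windows were searched for it on both strands. The windows ran from 250 bases before to 50 bases after each RefSeq start in GRCh38.p14. Of the 10 genes, 8 had a window, and ASNS and CHAC1 held a match, against 4.46% of the 27305 genes with a window. Of other lists, 7 of 16 cytosolic aminoacyl-tRNA synthetase genes (43.8%) held a match. The 30 bases around both matches are shown with the match in capitals, read 5′ to 3′ on the strand of the gene. The ASNS stretch lies on the minus strand at chr7:97872458-97872487, its match 61 to 68 bases before the start. The CHAC1 stretch lies on the plus strand at chr15:40953251-40953280, with the match 202 to 209 bases before the start and on the opposite strand.
ASNS: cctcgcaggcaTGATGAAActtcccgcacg
CHAC1: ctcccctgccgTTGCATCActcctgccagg

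No TGATGNAA was found in the windows of PHGDH, PSAT1, MTHFD2, ATF4, DDIT3 and TRIB3. These are matches of letters and not measured binding sites. Of the pair with a match, CHAC1 rose with the mimic in control cells and ASNS did not pass the test, as described below; the difference between them was not tested.

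Signals are given as log2 of the quantile normalized intensity, averaged over the kept probes of a gene, and differences are differences of these values. The share of spots called well above background ran from 60.5% to 77.3% by array, and the median standard error (SE) of a difference was 0.10 over 18253 genes tested. AGO2, the target of the siRNA, was 8.35, 8.44 and 8.42 in sirnaAGO2 against 9.21, 9.14 and 9.01 in cntrl, and 8.27, 8.35 and 8.41 in sirnaAGO2+mimic145 against 9.44, 9.36 and 9.39 in mimic145. AGO2 was thus lower on every silenced array. Of 6 genes that mark the line (VIM, CD44, CAV1, AXL, MSN and KRT18), all 6 were measured and only KRT18 moved, by 0.50 with the mimic in control cells and by -0.57 with silencing under the mimic. Of 4 genes listed as low in the line, PGR had no kept probe, while ESR1 kept 6 of 14, CDH1 7 of 16 and GATA3 6 of 6. Of 4 markers of other cell types (PTPRC, PECAM1, ALB and DES) none passed the test in the 3 comparisons tested here. Each slide held a cntrl and a mimic145 array, or a sirnaAGO2 and a sirnaAGO2+mimic145 array, of the same replicate. Mimic effects were therefore measured within slides. The mimic was always at the second position, so its effect and that of the position cannot be told apart. Nor can the effect of silencing and that of the slide be told apart within a replicate.

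With the mimic in control cells, 6 of the 10 genes rose and none fell (limma, adjusted p under 0.05), against 22.6% of all genes called, 11.6% higher and 11% lower. The 6 genes were PHGDH, SHMT2, ATF4, DDIT3, TRIB3 and CHAC1. Their rises lay between 0.23 for ATF4 and 0.86 for TRIB3, which is 1.18-fold and 1.82-fold. The median difference over the 10 genes was 0.33, beside 0.01 over all genes. The other 4 were PSAT1 at 0.27, MTHFD2 at 0.18, ASNS at 0.18 and PSPH at -0.12, none of which passed the test. The cntrl arrays of this comparison also served in the difference that chose the set. Without replicate 1, or without replicate 3, 2 genes were called, and 8 when a probe had to pass the background filter on each of the 12 arrays. By the methods' t-test 6 had an unadjusted p under 0.05 and none passed after adjustment, where that test called 0 of all genes.

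**Figure D1:**
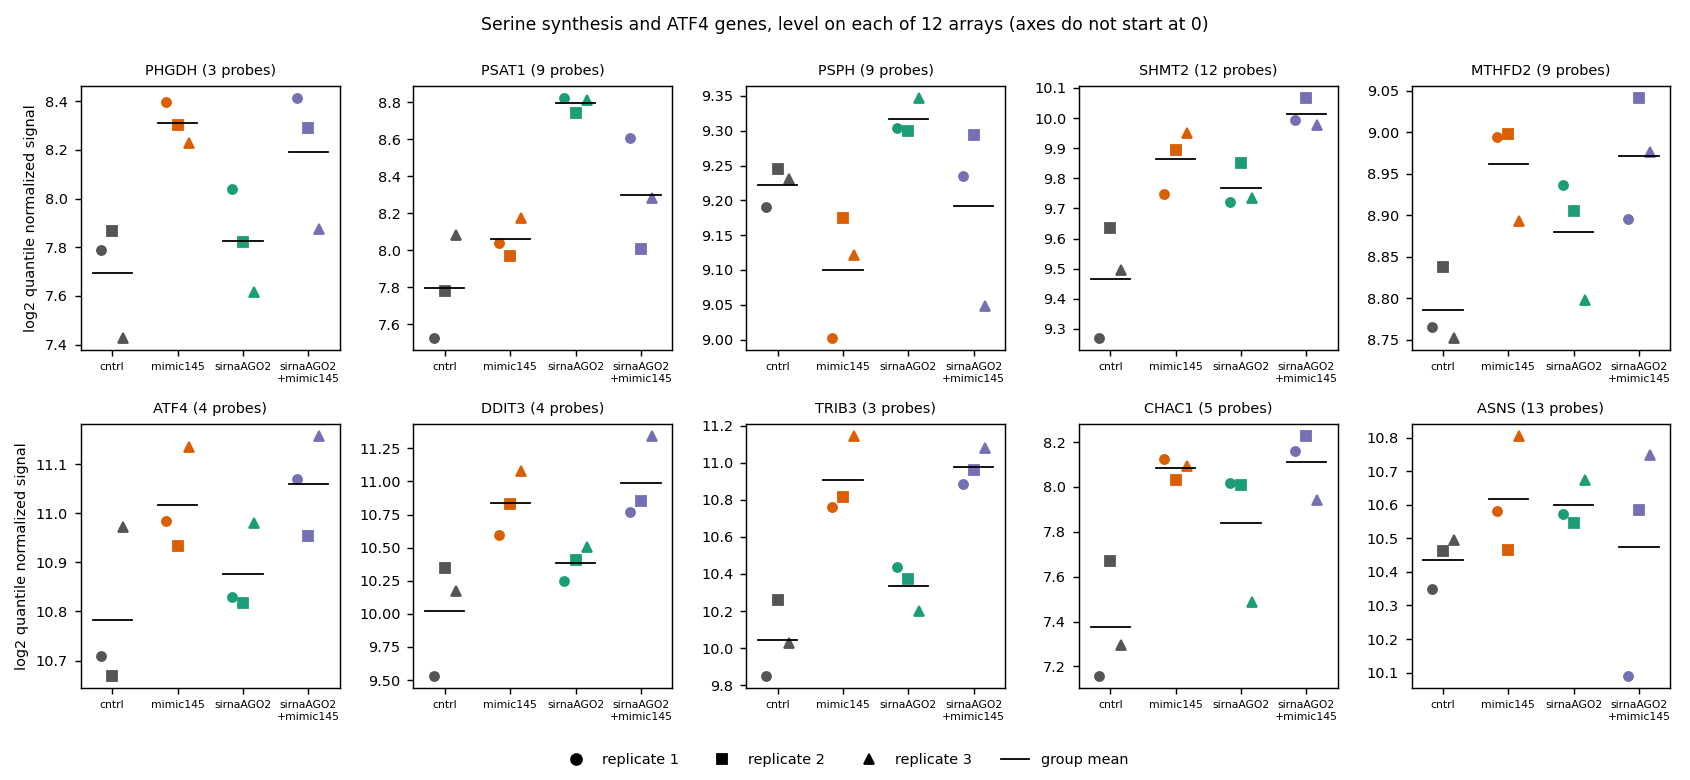
Level of each of the 10 genes on the 12 arrays, as log2 quantile normalized signal, by group, with the symbol giving the replicate number and the bar the mean of 3 arrays. TRIB3 and DDIT3 were higher on all arrays with the mimic than on all arrays without it, and PSAT1 was highest on the sirnaAGO2 arrays, at 8.74 to 8.82.

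In the serine branch, PHGDH, the enzyme of the committed first step, was 7.79, 7.87 and 7.43 on the cntrl arrays and 8.40, 8.30 and 8.23 on the mimic145 arrays. The groups did not overlap, and the difference was 0.61 (SE 0.09, limma adjusted p = 0.00176). PHGDH rested on 3 kept probes of 13, as the other 10 were not well above background on all arrays of any group. Its 3 kept probes differed by 0.04, 0.71 and 1.09, and with the median over probes in place of the mean the difference was 0.07 (limma adjusted p = 0.640).

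SHMT2, measured by 12 probes, was 9.27, 9.64 and 9.49 in cntrl and 9.75, 9.89 and 9.95 in mimic145. The groups were separate and all 12 probes were higher, with a gene difference of 0.40 (SE 0.08, limma adjusted p = 0.00665). MTHFD2 was 8.77, 8.84 and 8.75 in cntrl and 8.99, 9.00 and 8.89 in mimic145. These groups did not overlap either, but the difference of 0.18 (SE 0.06) did not pass (limma adjusted p = 0.0812). With the 7 MTHFD2 probes that were well above background on all 12 arrays, it was 0.29 (limma adjusted p = 0.0127). PSPH, the enzyme of the last step to serine, was 9.19, 9.25 and 9.23 in cntrl and 9.00, 9.17 and 9.12 in mimic145. All 3 mimic145 arrays were lower, by 0.12 on average (SE 0.08), and the test was not passed (limma adjusted p = 0.287).

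The largest differences among the 10 genes were those of 3 stress genes. TRIB3 was 9.85, 10.26 and 10.03 in cntrl and 10.76, 10.81 and 11.14 in mimic145, a difference of 0.86 (SE 0.13, limma adjusted p = 0.00186). DDIT3 was 9.53, 10.35 and 10.17 in cntrl and 10.59, 10.83 and 11.08 in mimic145, a difference of 0.82 (SE 0.14, limma adjusted p = 0.00357). CHAC1 was 7.16, 7.67 and 7.30 in cntrl and 8.12, 8.03 and 8.09 in mimic145, a difference of 0.71 (SE 0.14, limma adjusted p = 0.00681). For each of these 3 genes the arrays with the mimic lay above all cntrl arrays, and every kept probe was higher: 3 of TRIB3, 4 of DDIT3 and 5 of CHAC1.

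The ATF4 transcript itself moved little. It was 10.71, 10.67 and 10.97 in cntrl and 10.99, 10.93 and 11.13 in mimic145, so that the groups overlapped, while each replicate pair was higher with the mimic, by 0.28, 0.26 and 0.16. The mean difference of 0.23 (SE 0.06) passed the test (limma adjusted p = 0.0245), and it passed in 11 of 27 alternative settings. ASNS, the enzyme of asparagine synthesis, was 10.35, 10.46 and 10.50 in cntrl and 10.58, 10.47 and 10.80 in mimic145. The groups overlapped and the difference of 0.18 (SE 0.12) did not pass (limma adjusted p = 0.315), although all 13 of its probes were higher on average.

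**Figure D2:**
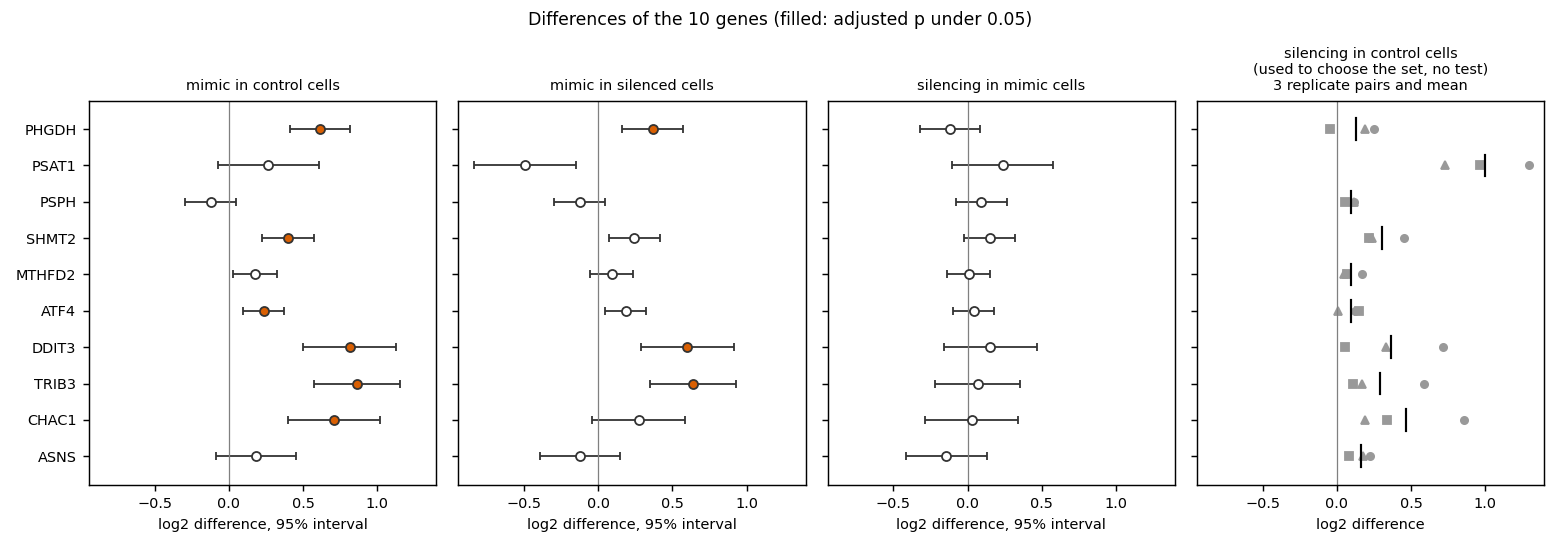
Log2 differences of the 10 genes in 4 comparisons, with 95% intervals from limma in the first 3 panels and with the 3 replicate pairs and their mean, and no test, in the last. Filled points passed at an adjusted p under 0.05: 6 genes with the mimic in control cells, 3 with the mimic in silenced cells and none with silencing in mimic cells.

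With the mimic in silenced cells, 3 of the 10 genes rose and none fell, against 7.28% of all genes called, 4.25% higher and 3.03% lower. The 3 were TRIB3, DDIT3 and PHGDH. This comparison shares no array with that in control cells, although its sirnaAGO2 arrays served in the difference that chose the set. The median over the 10 genes was 0.21, beside 0.02 over all genes.

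TRIB3 was 10.44, 10.37 and 10.20 in sirnaAGO2 and 10.88, 10.96 and 11.08 in sirnaAGO2+mimic145, a difference of 0.64 (SE 0.13, limma adjusted p = 0.0269). DDIT3 was 10.25, 10.41 and 10.50 in sirnaAGO2 and 10.77, 10.85 and 11.34 in sirnaAGO2+mimic145, a difference of 0.60 (SE 0.14, limma adjusted p = 0.0383). For both genes the groups did not overlap. PHGDH was 8.04, 7.82 and 7.62 against 8.41, 8.29 and 7.88, with overlap between groups, and its difference of 0.37 (SE 0.09, limma adjusted p = 0.0445) was called in 6 of 27 alternative settings. PSAT1 was called lower in 3 of 27 settings: without replicate 1, without sirnaAGO2+mimic145 replicate 1, and with slide as a random block. The calls of TRIB3, DDIT3 and PHGDH were all lost without the replicate block, with the slide as a fixed block, with only the 6 arrays compared, or without sirnaAGO2 replicate 2 or 3 or sirnaAGO2+mimic145 replicate 2 or 3.

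SHMT2 was separate between the groups, at 9.72, 9.85 and 9.73 against 9.99, 10.07 and 9.98, with a difference of 0.24 (SE 0.08) that did not pass (limma adjusted p = 0.0811). ATF4 differed by 0.18 (limma adjusted p = 0.0928) and CHAC1 by 0.27 (limma adjusted p = 0.228), with overlapping arrays. For PHGDH, SHMT2, ATF4, DDIT3, TRIB3 and CHAC1 the estimate in silenced cells minus that in control cells lay between -0.05 for ATF4 and -0.44 for CHAC1. The difference of the mimic effects contains the comparison that chose the set and is given only as a description.

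Silencing in mimic cells, that is sirnaAGO2+mimic145 against mimic145, was the comparison that shared no array with the one behind the choice. None of the 10 genes was called in it by limma, against 4.31% of all genes, 1.86% higher and 2.44% lower. By limma 0 of the 10 had an unadjusted p under 0.05. The methods' t-test called 0 of all genes after adjustment, so its 0 of the 10 says nothing about the set. The median over the 10 genes was 0.06, beside 0.00 over all genes. PSAT1 differed by 0.24 (SE 0.15, 95% interval -0.11 to 0.58, limma adjusted p = 0.410; two-sided exact permutation test p = 0.3, where 3 arrays against 3 cannot go below 0.1). The 95% intervals of the other 9 genes lay between -0.41, the lower end for ASNS, and 0.46, the upper end for DDIT3. SHMT2 lay higher on all 3 silenced arrays, by 0.15 (SE 0.08), and did not pass (limma adjusted p = 0.307).

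In the comparison that chose the set, PSAT1 was 7.53, 7.78 and 8.08 in cntrl and 8.82, 8.74 and 8.81 in sirnaAGO2. All 3 silenced arrays lay above the control arrays, the mean difference was 1.00, and PSAT1 ranked 12 of 18253 genes from the top. The choice itself favours these values, and nothing is read from them. The 3 PSAT1 probes kept only through the sirnaAGO2 arrays had the largest differences, 1.59, 1.43 and 1.23, and the other 6 lay between 0.58 and 0.93. The differences of the other 9 genes lay between 0.09 for ATF4, PSPH and MTHFD2 and 0.46 for CHAC1.

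PSAT1 makes phosphoserine in the middle step. That its sirnaAGO2 mean lay above its cntrl mean follows from the choice, so the order of its groups is a description. PSPH too had its highest mean in sirnaAGO2, at 9.32. The PSAT1 means were 7.80 ± 0.28 (SD, n = 3) in cntrl, 8.06 ± 0.10 in mimic145, 8.30 ± 0.30 in sirnaAGO2+mimic145 and 8.79 ± 0.04 in sirnaAGO2. The arrays of each neighbouring pair in this order overlapped, except that all 3 sirnaAGO2 arrays lay above all others. On single arrays it was 8.04, 7.97 and 8.18 in mimic145 and 8.61, 8.01 and 8.28 in sirnaAGO2+mimic145. The mimic effect was 0.27 in control cells (SE 0.15, limma adjusted p = 0.246) and -0.49 in silenced cells (SE 0.15, limma adjusted p = 0.0763). The cntrl and sirnaAGO2 arrays served in the choice, which favours a rise in control cells and a fall in silenced cells. A fit with a stricter filter for every gene left out the 3 PSAT1 probes kept only through the sirnaAGO2 arrays. In it the PSAT1 effect in silenced cells was -0.16 (limma adjusted p = 0.244).

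The mean over 9 PSAT1 probes joined probes that moved in opposite directions, as the plot of the PSAT1 probes shows. They are numbered here from the brightest in cntrl; 7 belong to one RefSeq transcript record of the gene (record A) and 2, probes 1 and 8, to another (record B). Each kept probe of the series was also fitted on its own, an analysis added after the gene values had been seen. The cntrl arrays served in the choice of PSAT1, which favours a rise of its probes with the mimic in control cells. Probe 1 fell with the mimic in control cells, from 12.07, 12.66 and 12.42 to 11.61, 11.73 and 11.74, a difference of -0.69 (limma adjusted p = 0.00789). Probe 5 rose, from 7.61, 7.96 and 7.61 to 9.05, 8.95 and 9.00, a difference of 1.27 (limma adjusted p = 0.000712). Probes 2 and 3 rose too, by 1.04 and 0.89 (limma adjusted p = 0.00103 and 0.00155).

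In all, 3 of the 9 PSAT1 probes rose and 1 fell with the mimic in control cells, against 8.1% and 7.29% of all 142929 probes fitted. The 3 that rose belong to record A and the one that fell to record B, whose other probe, probe 8, differed by -0.80 (limma adjusted p = 0.251). On none of the mimic arrays did probe 8 rise well above background, so its values there are bounds. Which exons the probes cover was not analysed here.

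With silencing in mimic cells, probe 1 rose from 11.61, 11.73 and 11.74 to 12.87, 12.86 and 12.72, a difference of 1.12 (SE 0.12, limma adjusted p = 0.0110), on arrays that had no part in choosing PSAT1. This was the only one of its 9 probes that passed, against 0.715% of all probes that rose and 0.726% that fell. Silencing was compared between slides, which this fit does not model, and the single-probe fit was run under none of the alternatives. Probe 5 differed in the other direction, by -0.53 (limma adjusted p = 0.0729), and the remaining 7 lay between -0.17 and 0.91. In the comparison that chose the set all 9 probes were higher, by 0.58 to 1.59. Probes 7, 8 and 9 were kept only because all 3 sirnaAGO2 arrays, where the gene is highest, were well above background; with the other 6 probes alone PSAT1 differed by 0.50 with the mimic in control cells (limma adjusted p = 0.00219) and by 0.12 with silencing in mimic cells (limma adjusted p = 0.431).

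**Figure D3:**
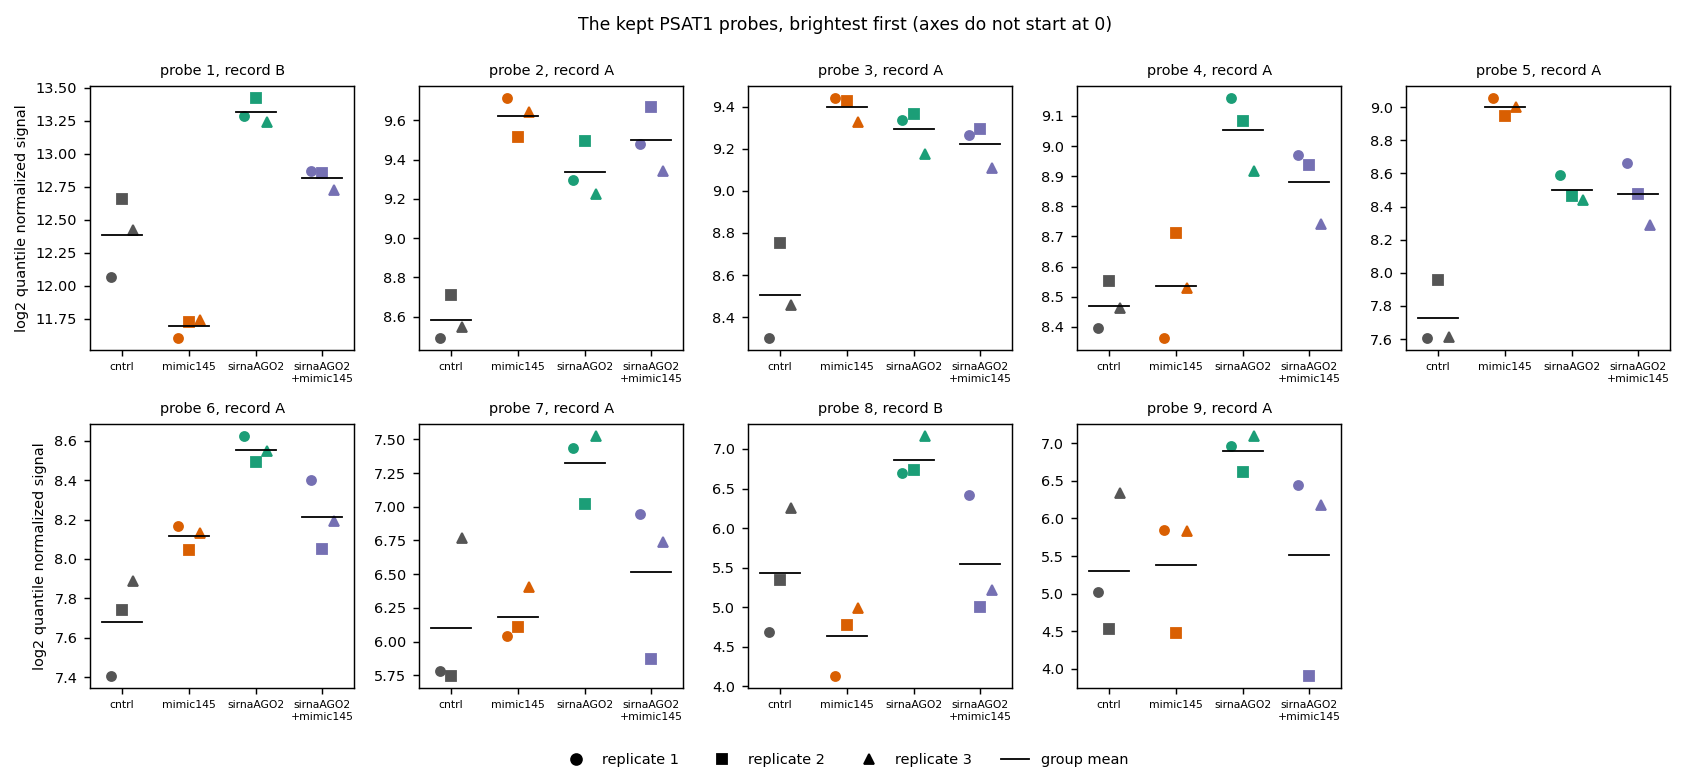
The 9 kept PSAT1 probes, numbered from the brightest in cntrl, as log2 quantile normalized signal on each of 12 arrays by group, with bars at the means of 3 arrays. Probe 1 was lowest on the mimic145 arrays (11.61 to 11.74), whereas probe 5 was highest on them (8.95 to 9.05).

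None of the other 9 genes had probes called in opposite directions with the mimic in control cells. All 12 SHMT2 probes, 13 ASNS probes, 5 CHAC1 probes, 4 DDIT3 probes, 4 ATF4 probes, 3 TRIB3 probes and 3 PHGDH probes had estimates above 0, as did 8 of 9 MTHFD2 probes and 2 of 9 PSPH probes. Over all 142929 probes fitted, 52.1% had estimates above 0. Probes of a gene were read on the same arrays, so their agreement, here and above, is not replication. ASNS had 1 probe of 13 that read 8.67 on sirnaAGO2+mimic145 replicate 1 and between 14.9 and 15.6 on the other 11 arrays. Without it, the ASNS difference with the mimic in silenced cells was 0.06 in place of -0.12, and that with silencing in mimic cells 0.04 in place of -0.14.

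Over the 12 arrays, with the mean of each replicate number taken off, TRIB3 followed DDIT3 (Pearson's r = 0.97), PHGDH (0.94), CHAC1 (0.93), SHMT2 (0.91) and ATF4 (0.91). PSAT1, ASNS and PSPH followed these genes less closely: with TRIB3 their r was 0.13, 0.28 and -0.51. PSAT1 had r between 0.02, with PHGDH, and 0.53, with PSPH. Among 13329 genes with at least 3 kept probes, those most like PSAT1 by the same measure were MTOR (0.98), SLC44A1 (0.97), SETD2 (0.95), MBTPS1 (0.94) and ENOPH1 (0.93), beside a median of -0.06 over all of these genes. Group means of MTOR ran only from 7.39 to 7.61 and those of SETD2 from 9.15 to 9.33. The PSAT1 values include the comparison that chose it and the probes kept only through the sirnaAGO2 arrays. The 12 arrays also share their group and slide structure, so these correlations describe the arrays, carry no test and show no link between genes.

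Genes around the set were taken from lists of its pathways. In serine, glycine and one-carbon metabolism, 4 of 27 genes rose and 4 fell with the mimic in control cells, near the 11.6% and 11% of all genes, and the list's median was -0.03 beside 0.01 over all genes. The largest rises were in MTHFD2L, a mitochondrial relative of MTHFD2 (0.55), SFXN1, the mitochondrial serine carrier (0.53), and SLC25A32, the mitochondrial folate carrier (0.41). The 4 falls were fewer without 1 array: 1 without cntrl replicate 3 or without mimic145 replicate 1 or 3, and 2 without cntrl replicate 1 or 2. Falls included SRR, serine racemase (-0.47), and MTR, methionine synthase (-0.36). In silenced cells 2 of the 27 genes fell and none rose, against 3.03% of all genes lower and 4.25% higher. They were GCSH of the glycine cleavage system, by 0.44, and AHCY, which hydrolyses S-adenosylhomocysteine, by 0.23. With 1 array left out, 0 to 3 genes of the list fell in silenced cells. AHCY was also the single gene of the list called with silencing in mimic cells, where it fell by 0.38. There, leaving out 1 array gave 0 to 1 falls and 0 to 1 rises. Over all genes 1.86% rose and 2.44% fell in that comparison.

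Of 15 genes of amino acid transport and synthesis, 5 rose with the mimic in control cells and none fell, against 11.6% of all genes higher and 11% lower, with a median of 0.12. They included GOT1, aspartate aminotransferase (0.64), SLC36A4, an amino acid transporter (0.44), and SLC7A11, the cystine transporter (0.41). Without mimic145 replicate 1 or mimic145 replicate 3, 2 of the 5 rises were called. GOT1 rose in silenced cells too, by 0.30, where leaving out 1 array gave 0 to 2 rises in the list. With silencing in mimic cells, PCK2, a mitochondrial enzyme of phosphoenolpyruvate synthesis, rose by 0.35 and SLC43A1, a transporter of large neutral amino acids, by 0.31, while SLC38A1, a glutamine transporter, fell by 0.36, against 1.86% of all genes higher and 2.44% lower. These 3 calls held in 7 (PCK2), 8 (SLC43A1) and 9 (SLC38A1) of 26 alternative settings.

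Of 18 tested partners and effectors of ATF4, 4 rose in control cells and none fell, against the same 11.6% and 11% of all genes, with a median of 0.16. CEBPB rose by 0.97, on 1 probe, and CEBPG by 0.70; both encode C/EBP proteins that pair with ATF4. GDF15, a secreted stress cytokine, rose by 0.68. The 4 rises of the list became 3 to 6 with 1 array left out, with 0 to 1 falls. With all arrays of 1 replicate number left out they became 0 to 4. In silenced cells and with silencing in mimic cells none of the 18 passed by limma. Over all genes 4.25% rose and 3.03% fell in the former, and 1.86% and 2.44% in the latter. The methods' t-test called 0 of all genes in both. Of 21 cytosolic aminoacyl-tRNA synthetases, 7 rose and 2 fell in control cells, where 11.6% of all genes rose and 11% fell, with a median of 0.07. VARS1, HARS1 and WARS1 rose by 0.59, 0.46 and 0.42, and IARS1 and LARS1 fell by 0.43 and 0.29. The 7 rises were 4 without cntrl replicate 1, without cntrl replicate 3 or without mimic145 replicate 3. In silenced cells TARS3 fell by 0.48 and LARS1 by 0.27, and none of the 21 rose, against 3.03% of all genes lower and 4.25% higher. Leaving out 1 array gave 0 to 2 falls there.

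**Figure D4:**
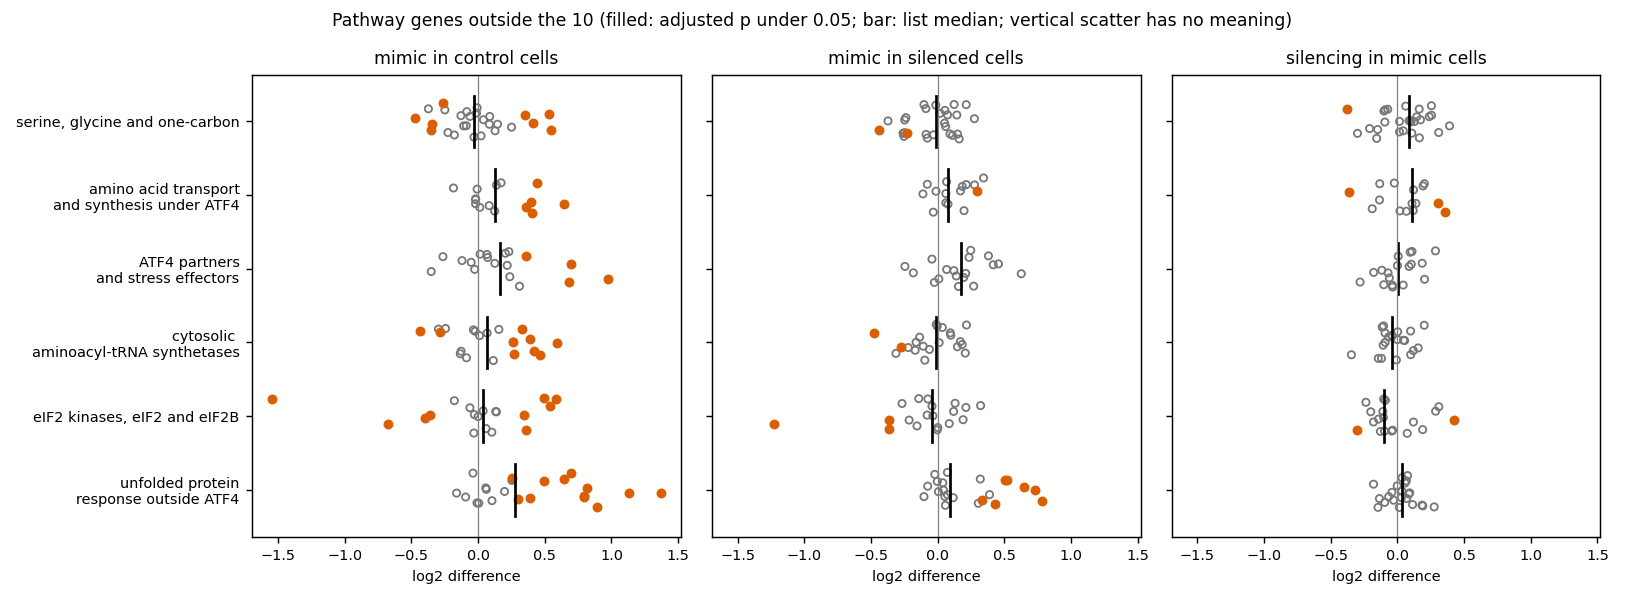
Log2 differences of pathway genes outside the 10, 1 point a gene, by list, for the mimic in control cells, the mimic in silenced cells and silencing in mimic cells. Filled points passed at a limma adjusted p under 0.05 and bars are list medians; 12 of 22 genes of the unfolded protein response rose with the mimic in control cells, and EIF2AK1 is the leftmost point of both mimic panels.

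Among 19 genes of the eIF2 step, 5 rose and 4 fell with the mimic in control cells, against 11.6% higher and 11% lower over all genes. EIF2AK1, the kinase HRI that senses heme loss and mitochondrial stress, was 9.91, 9.69 and 10.22 in cntrl and 8.43, 8.13 and 8.62 in mimic145. It fell by 1.55 (SE 0.08, limma adjusted p = 3.25e-05), to 0.342 of its control level. In silenced cells it went from 9.89, 9.80 and 10.11 to 8.86, 8.46 and 8.79 and fell by 1.23 (SE 0.08, limma adjusted p = 0.000775). The arrays with and without the mimic did not overlap in either background.

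EIF2AK4, the kinase GCN2 that senses lack of amino acids, fell by 0.68 in control cells (SE 0.09, limma adjusted p = 0.00106) and by 0.37 in silenced cells (SE 0.09, limma adjusted p = 0.0425). It was 8.05, 8.24 and 8.23 in mimic145 and 8.73, 8.45 and 8.61 in sirnaAGO2+mimic145, so that it rose by 0.43 with silencing in mimic cells (SE 0.09, limma adjusted p = 0.0330). EIF2AK2 (PKR) and EIF2AK3 (PERK), shown here to complete the 4 kinases and chosen after their values were seen, differed by -0.06 and -0.03 with the mimic in control cells (limma adjusted p = 0.621 and 0.913). OMA1, a mitochondrial protease upstream of HRI, fell by 0.40 in control cells. The rises were led by EIF2B2 (0.59), EIF2S1 (0.54), which encodes the phosphorylated subunit of eIF2, and EIF2A (0.50). In silenced cells 3 genes of the list fell and none rose, against 3.03% of all genes lower and 4.25% higher. The third was EIF2S3, by 0.36, which also fell by 0.31 with silencing in mimic cells. EIF2AK1 was called in silenced cells in 23 of 27 alternative settings, EIF2AK4 in 10 and EIF2S3 in 14; with silencing in mimic cells, EIF2AK4 was called in 8 of 26 and EIF2S3 in 5.

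The last list held 22 genes of the unfolded protein response, labelled here as outside the ATF4 arm. Whether ATF4 also acts on any of them was not tested. With the mimic in control cells 12 of the 22 rose and none fell, against 11.6% of all genes higher, and in silenced cells 7 rose and none fell, against 4.25% higher. The list's medians were 0.28 and 0.09, beside 0.01 and 0.02 over all genes. DNAJB9, an endoplasmic reticulum co-chaperone, was 9.07, 8.96 and 9.56 in cntrl and 10.71, 10.07 and 10.94 in mimic145, a rise of 1.37 (SE 0.18, limma adjusted p = 0.00124). SDF2L1, another protein of the reticulum, rose by 1.13 and HERPUD1, of its degradation pathway, by 0.89. HSPA5, the chaperone BiP, rose by 0.81 and was named after its value was seen. In silenced cells DNAJB9, SDF2L1 and HERPUD1 rose by 0.78, 0.73 and 0.65, and HSPA5 by 0.50. Without all arrays of replicate 1, 6 of the 22 rose in control cells. The 7 calls in silenced cells fell to 0 without sirnaAGO2 replicate 2 or 3 or sirnaAGO2+mimic145 replicate 3, to 1 without sirnaAGO2+mimic145 replicate 2, to 2 without sirnaAGO2 replicate 1, and to 4 without cntrl replicate 1 or 2 or mimic145 replicate 1. With silencing in mimic cells none of the 22 genes passed by limma, against 1.86% of all genes higher and 2.44% lower. The methods' t-test called 0 of all genes there.

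**Figure D5:**
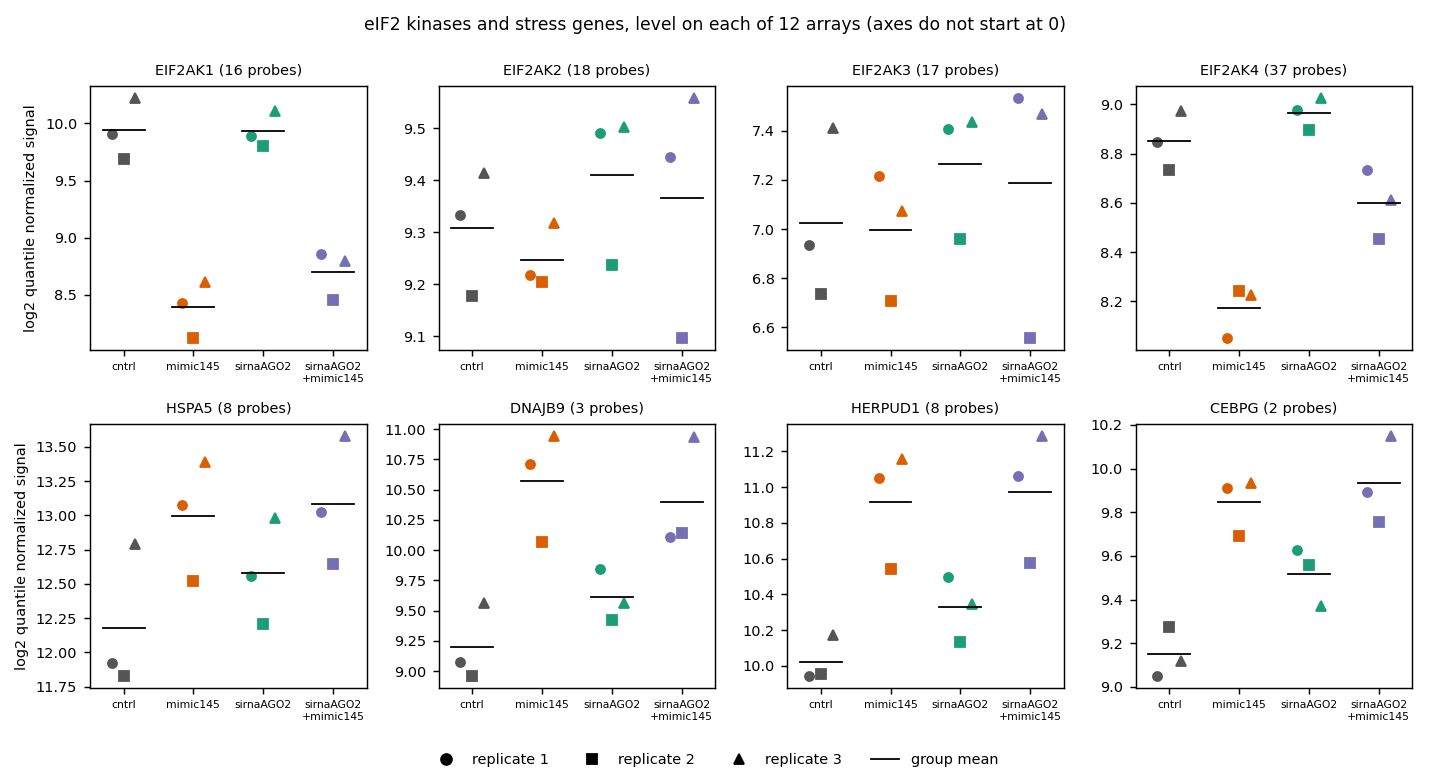
Level of the 4 eIF2 kinases and of 4 stress genes on each of 12 arrays, as log2 quantile normalized signal, by group, with bars at the means of 3 arrays. EIF2AK1 was 8.13 to 8.86 on the arrays with the mimic and 9.69 to 10.22 on those without it, while HSPA5 was higher with the mimic within each replicate.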

How the data were processed

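RNA was labelled with 1 dye and hybridised to exon arrays with 2 arrays on a slide. The authors extracted signals with Agilent Feature Extraction 10.7.3.1 and deposited the scanner output of each array, from which the processed intensity of a spot, background already removed, was taken. The authors also deposited a log2 table, quantile normalized after values under 1 were set to 1, used here as an alternative. Control and outlier spots (304 to 462 an array) were left out, intensities were quantile normalized and their log2 taken, and the spots of a probe averaged. Of 233164 probes, 209671 were assigned to 20708 genes by transcript accession through RefSeq. Probes that were well above background on all 3 arrays of any group were kept, and a gene was the mean of its kept probes; 2832 of 18253 genes rested on 1 probe.

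Groups were taken from the sample labels and compared with limma 3.58.1 in R 4.3.3, all 12 arrays in the fit, with the replicate number as a block as in the paired test of the study's methods. All p-values are two-sided and were adjusted by Benjamini and Hochberg's method across the genes tested, with a threshold of 0.05. Over 18 pairs, arrays with the same replicate number deviated together (r of 0.14 to 0.58). Over 36 pairs of different number and group r was -0.50 to 0.20, so the ranges overlapped. Some of the 18 pairs also shared a slide. The design text calls the replicates biological, and precision is limited by 3 arrays a group. The fit was tested on simulated data. The 10 genes and the lists were chosen with earlier results of these data known. Named were the 10 genes, AGO2, up to 3 called genes of a list in each direction, and the 5 genes most like PSAT1; 1 gene that the rule names is not reported here. There were 13 alternatives and 3 added after seeing the data: the slide as a fixed block, single probes, and ASNS without 1 probe. Promoter and microRNA sequences came from RefSeq GRCh38.p14, while the array design follows an earlier build. Figures were drawn with matplotlib 3.10.9.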

Additional observations from a re-analysis of the deposited data

Results flagged for a closer look

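PSAT1 stood out because its mimic effect had opposite directions in control and in silenced cells. The gene was higher in all 3 replicate pairs of control cells, by 0.51, 0.19 and 0.09, and lower in all 3 pairs of silenced cells, by -0.21, -0.74 and -0.53. The effect in silenced cells minus that in control cells was -0.76 on the log2 scale. Without the 3 probes kept only through the sirnaAGO2 arrays, the effects of the mimic on PSAT1 were 0.50 and -0.16. The difference contains the comparison that chose the set, so it was not tested as a result. Its probes differed among themselves: probe 1 fell in all 3 pairs of both backgrounds, whereas probes 2, 3 and 5 rose in all 3 pairs of control cells.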

How the results depend on the processing

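Of the 10 genes, 6 rose with the mimic in control cells. The count was 8 with probes well above background on all 12 arrays and 7 with normexp background correction. It was 0 by the methods' t-test, and leaving out replicates gave 2 to 6. The methods' t-test called 0 of all genes in both mimic comparisons, as did the fit of the 6 arrays compared in silenced cells. Of the 3 called in silenced cells, 0 remained without the replicate block, with a fit of the 6 arrays compared, with the slide as a fixed block or by the methods' t-test, and leaving out replicates gave 0 to 2. Of these counts, PSAT1 as a fall was the 1 call without replicate 1, and 1 of 2 both without sirnaAGO2+mimic145 replicate 1 and with slide as a random block. The replicate block is paired across groups: without it, 5 of the 10 genes were called with the mimic in control cells, and calls over all genes were 1995 in place of 4118 there, 78 in place of 1329 in silenced cells, and 98 in place of 786 with silencing in mimic cells. Slide as a random block, in place of the replicate block, gave 3922 calls over all genes with the mimic in control cells. It gave 1024 with the mimic in silenced cells and 90 with silencing in mimic cells. Calls are not given for the comparison that chose the set or for the difference of the mimic effects, which contains it.

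With silencing in mimic cells no gene of the 10 was called under any setting, and several estimates near 0 changed sign. With the median over probes, PSAT1 was -0.059, PHGDH 0.12 and ATF4 -0.0073. With 75th percentile scaling, normexp and the authors' log2 table, MTHFD2 was -0.00013, -0.0026 and -0.0081, and with no filter on dim probes TRIB3 was -0.037. Leaving out replicates gave 0.038 to 0.36 for PSAT1, -0.18 to 0.0011 for PHGDH, -0.028 to 0.063 for MTHFD2, -0.27 to 0.032 for ASNS, -0.018 to 0.19 for TRIB3 and -0.095 to 0.13 for CHAC1, and -0.22 to 0.056 for ASNS with the mimic in silenced cells. PHGDH, ASNS, TRIB3 and CHAC1 turned sign without replicate 3, without replicate 1, without mimic145 replicate 2 and without replicate 2, respectively. Without its probe that was low on 1 array, ASNS was 0.039 with silencing in mimic cells and 0.065 with the mimic in silenced cells. The cause was not tested. TRIB3, DDIT3, CHAC1, SHMT2, ATF4 and PHGDH kept their direction with the mimic in each background in 27 of 27 settings. So did PSAT1, PSPH and MTHFD2, which were called in neither background as reported. The settings reuse the same arrays, so a kept direction is not separate support for a call. At 3 arrays a group, differences above the median SE of 0.10 could also go uncalled. Such were MTHFD2 at 0.18 with the mimic in control cells and SHMT2 at 0.24 with the mimic in silenced cells.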
